A study of Trametes gibbosa with 15 samples.

Results

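The comparison described here sets the last wood day of a time course, day 11, against the first, day 3, in the mycelium of Trametes gibbosa, a white-rot fungus (also called Lenzites gibbosa). It rests on 6 of the 15 libraries of the study, 3 per day, which were taken by their labels and not by any measured value. All libraries came from strain CB-1, a single isolate, grown without shaking in flasks of a low-nitrogen liquid medium with glucose for 10 days. The control group was harvested then, without wood. The other groups received 2 g of chips of a poplar hybrid and were harvested 3, 5, 7 or 11 days later, with 15 bottles per group that made up 3 biological replicates. Day 11 cultures were thus older than day 3 cultures as well as longer in contact with wood, and age and wood contact cannot be told apart. Poly-A RNA was sequenced, and the authors deposited an estimated count for each gene and library.

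White-rot fungi are basidiomycetes that break down lignin together with cellulose and hemicellulose. They secrete oxidative enzymes such as laccases and manganese peroxidases, and hydrolases that release sugars from the wall polysaccharides. In the liquid medium used here the mycelium had sugar at the start, so a time course with wood can record both the response to the chips and the ageing of the culture. The files do not pair gene identifiers with names or products, so no gene below is assigned to an enzyme family or a pathway. Identifiers are printed for 2 genes that rose and 2 that fell, and the other genes are described by their levels and counts.

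The 6 libraries held 32963058 to 46377457 estimated counts. By the codes in their labels, replicate 1 of day 3 belongs to a first series of 6 libraries (with the 3 controls and replicate 1 of days 5 and 7), and the other 5 belong to a second series of 9. Replicate 1 of day 3 stood apart from replicates 2 and 3. Among the 83 genes that rose from day 3 to day 11, it was the highest day 3 library in 61 (73.5%), against 37.3% of all 11386 genes tested. Among the 79 genes that fell, it was the lowest day 3 library in 46 (58.2%), against 37.9% of all genes. For these genes it thus lay toward day 11 on both sides. With library series as a term the contrast rests mainly on replicates 2 and 3 of day 3. The choice of genes by itself can therefore place replicate 1 nearer to day 11. How much of the shift came from that choice, from the library series or from the cultures was not tested. The comparison was fitted with library series as a term, and results are also given with replicates 2 and 3 as the only day 3 libraries.

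By day 11, 83 genes stood higher than at day 3 (0.729% of genes tested) and 79 stood lower (0.694%), together 1.42%. The genes that fell tended to be more abundant than the genes tested as a whole. Their median level over the 6 libraries was 41.0 FPKM (fragments per kilobase of transcript, scaled to library depth), against 12.8 FPKM for all genes tested, and 23 of the 79 (29.1%) lay at 100 FPKM or more, where 9.16% of all genes lie. The genes that rose were mostly less abundant, with a median of 7.39 FPKM and 6 of 83 (7.23%) at 100 FPKM or more. The sizes of change were alike, with median fitted log2 fold changes of 1.44 and -1.47. A fold of at least 4 was reached by 22 genes that rose (0.193%) and 17 that fell (0.149%).

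Calls required both a fold of at least 2 and an adjusted p below 0.05 in edgeR's quasi-likelihood test (Benjamini-Hochberg). An unadjusted p below 0.05 was reached by 2461 genes (21.6%). Higher and lower are meant against the bulk of the genes, and scaling by library totals, which moved the median log2 fold change of all genes by 0.122, gave 143 higher and 60 lower. The counts depended on single libraries. Without replicate 2 of day 3 they were 15 higher and 33 lower, without replicates 1 and 2 of day 11 in turn 35 and 49, and 33 and 41, and without replicate 1 of day 3 they were 46 and 65.

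**Figure D1:**
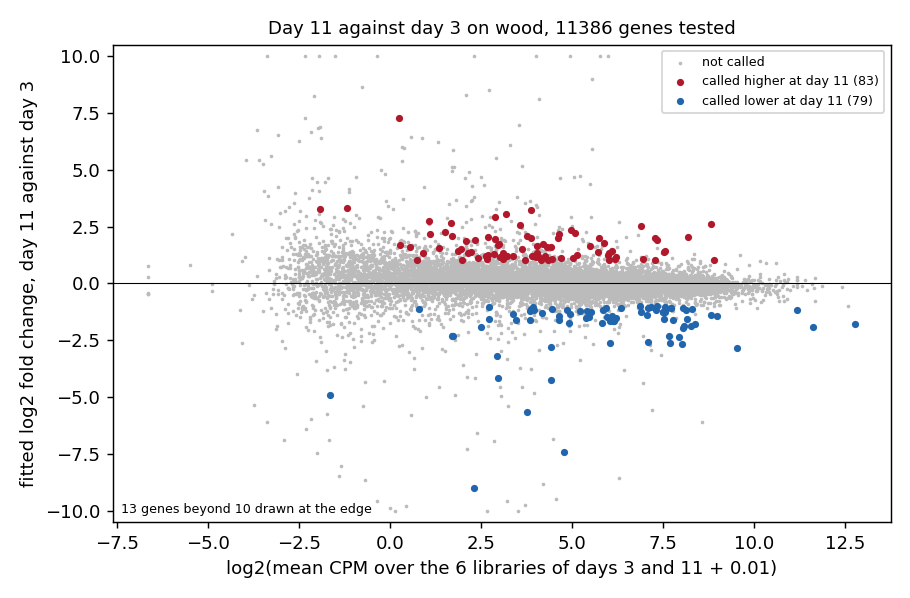
Fitted log2 fold change of day 11 against day 3 (vertical axis) by mean level over the 6 libraries, as log2 of mean CPM (counts scaled to library depth) + 0.01, for 11386 genes tested. The 79 genes called lower (blue) reach to the right end of the axis, while the 83 called higher (red) lie mostly further left, and 13 genes beyond 10 are drawn at the edge.

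Taken as a share of all counts, the genes that fell carried 2.22%, 3.83% and 3.41% in replicates 1, 2 and 3 of day 3. At day 11 they carried 1.15%, 1.198% and 1.45%. The days did not overlap, and replicate 1 was the lowest of day 3. The genes that rose carried 0.290%, 0.162% and 0.180% at day 3, and 0.566%, 0.563% and 0.548% at day 11. Here replicate 1 was the highest library of day 3. These shares describe genes chosen for that difference and carry no test. In counts, the loss in the genes that fell, from a mean of 3.15% to 1.26%, was several times the gain in the genes that rose, from 0.211% to 0.559%.

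**Figure D2:**
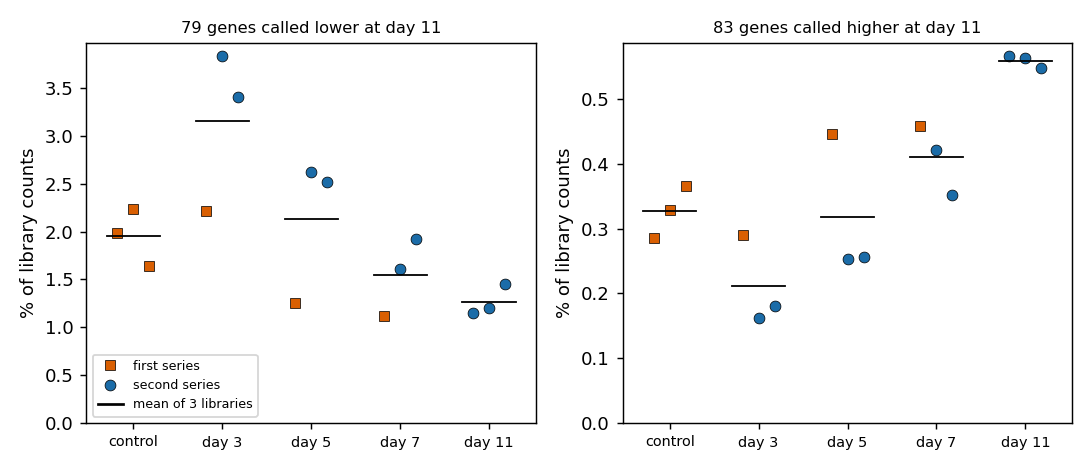
Share of each library's counts held by the 79 genes called lower (left) and the 83 called higher (right) at day 11 than at day 3, with squares for the first library series, circles for the second and lines for group means. The falling set drops from 3.83% and 3.41% in the second-series libraries of day 3 to between 1.15% and 1.45% at day 11, and the first-series libraries lie lower than the second on each of days 3, 5 and 7.

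The most abundant gene that fell was gene_3048. It had the highest FPKM of all genes in each of the 3 day 3 libraries, with 5632, 8462 and 8181 FPKM. At day 11 it stood at 2901, 2656 and 3071 FPKM and ranked second, second and first. All 3 libraries of day 11 lay below all 3 of day 3. The gene held 1.03% ± 0.221 of all counts at day 3 and 0.401% ± 0.0307 at day 11 (SD, n = 3), beside the drop from 3.15% to 1.26% of the whole set of 79. The fitted log2 fold change was -1.77 (SE 0.17, back-calculated from the F statistic; edgeR adjusted p = 0.000837), and with the second series alone it was -1.64 (edgeR adjusted p = 0.00839). The call was kept in all 15 fits that leave out 1 library, but not without the series term (edgeR adjusted p = 0.0831). Levels between were graded, with 8724 and 7566 CPM in the second-series libraries of day 5 and 4774 and 5959 CPM in those of day 7. In the first series the gene went from 7641 CPM at day 3 to 3506 at day 5 and 2610 at day 7. The controls held 7757, 9681 and 8140 CPM, which overlaps day 3 and lies above every library of day 11. Against the control, gene_3048 was not called at day 3 (log2 fold change -0.38) and was lower at day 11 (log2 fold change -2.15, edgeR adjusted p = 8.1e-05). Day 11 and the control share no library series, so every such comparison rests on the shift between series estimated from days 3, 5 and 7, which for gene_3048 was 0.94 on the log2 scale.

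The largest fall among reference genes that met every condition for naming was that of gene_2220. Day 3 libraries held 22.5, 58.6 and 41.2 CPM, and day 11 libraries held 2.75, 1.85 and 1.69 CPM. Levels were as low at day 5, where the 3 libraries held 1.93, 2.93 and 1.51 CPM, and day 7 libraries held 6.68, 1.87 and 2.91 CPM. Day 3 lay above days 5 and 7 in both library series. The fitted log2 fold change of day 11 against day 3 was -4.25 (SE 0.84, edgeR adjusted p = 0.0244), and -4.56 with the second series alone (edgeR adjusted p = 0.00826). The controls were widely spread, at 6.87, 71.6 and 21.8 CPM, and day 11 was lower than control (log2 fold change -3.84, edgeR adjusted p = 0.0246). Leaving out 1 library ended the call between days 11 and 3 in 4 of 15 fits, among them the fit without replicate 2 of day 3 (edgeR adjusted p = 0.0794).

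Of the genes that rose, gene_9282 was the most abundant that met every condition, with 256 FPKM on average over the 6 libraries. Its course differed between the library series. In the second series it stood at 81.5 and 85.5 CPM at day 3, 129 and 107 CPM at day 5, and 920 and 768 CPM at day 7, and the 3 day 11 libraries held 735, 538 and 723 CPM. The large step thus lay between days 5 and 7. In the first series the same gene held 531, 582 and 602 CPM at days 3, 5 and 7, and the controls held 353, 470 and 701 CPM. The libraries of the first series therefore showed no such low phase. The difference between series in the change from day 3 to day 7 was 3.16 on the log2 scale and did not pass the test (edgeR adjusted p = 0.0874). With the series term the log2 fold change of day 11 against day 3 was 2.62 (SE 0.59, edgeR adjusted p = 0.0367), and with the second series alone 3.01 (edgeR adjusted p = 0.00288). Leaving out 1 library ended the call in 10 of 15 fits, and so did dropping the series term (edgeR adjusted p = 0.432). Against the control, gene_9282 was not called at day 3 (log2 fold change -0.47) and was called higher at day 11 (log2 fold change 2.15, edgeR adjusted p = 0.0479). In CPM its day 11 libraries overlapped the controls, so that call rests on the fitted shift between series.

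The largest rise under the same conditions was that of gene_6148. Day 3 libraries held 9.38, 1.14 and 1.30 CPM and day 11 libraries held 16.1, 13.1 and 13.6 CPM. Replicate 1 of day 3 was again nearest to day 11. The gene was already at 14.1, 11.3 and 5.53 CPM at day 5 and at 20.4, 7.65 and 6.77 CPM at day 7, so in both series day 5 already stood above day 3. The controls held 3.54, 3.12 and 1.08 CPM. The fitted log2 fold change from day 3 to day 11 was 3.05 (SE 0.57, edgeR adjusted p = 0.0182), and 3.56 with the second series alone (edgeR adjusted p = 0.0155). Against the control the gene was not called at day 3 (log2 fold change 1.22, edgeR adjusted p = 0.129) and was higher at day 11 (log2 fold change 4.27, edgeR adjusted p = 0.00117). In CPM the means were 14.3 at day 11 and 2.58 in the controls, so the fitted size rests in part on the shift between series. Without the series term the change between days 3 and 11 was 1.86 (edgeR adjusted p = 0.336), and 3 of 15 fits with 1 library left out ended the call.

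**Figure D3:**
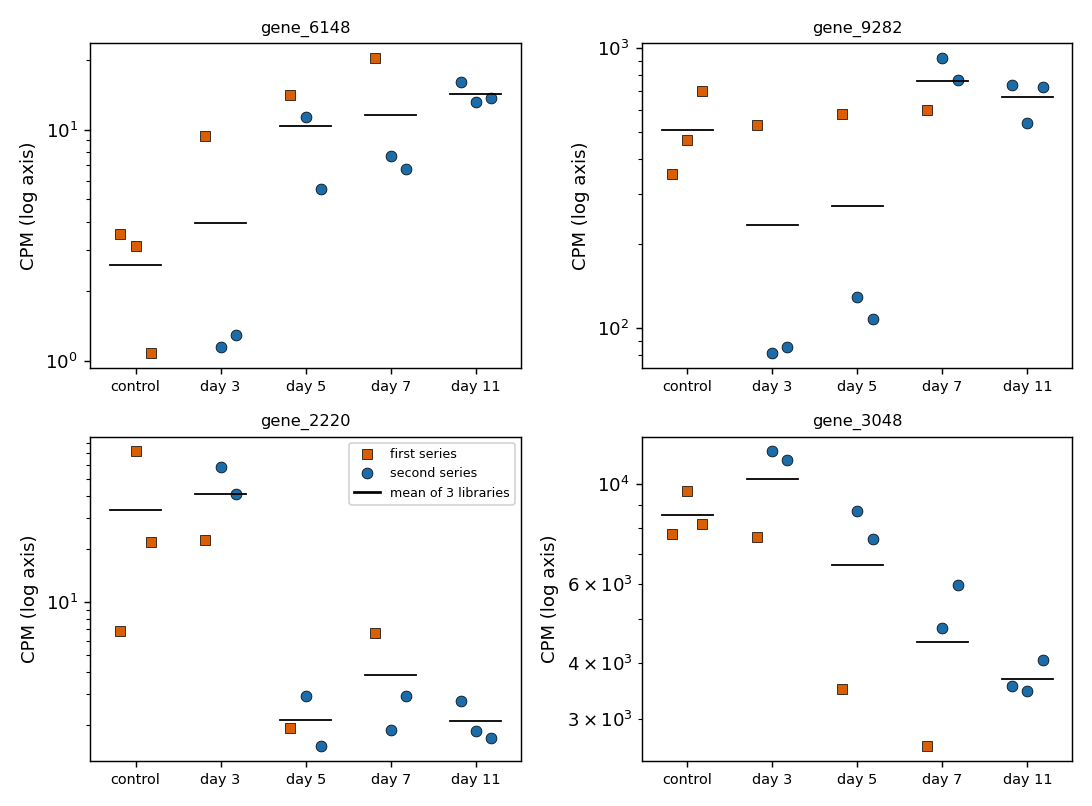
CPM on a log axis in all 15 libraries for the 2 genes that rose (upper row, gene_6148 and gene_9282) and the 2 that fell (lower row, gene_2220 and gene_3048), with squares for the first library series, circles for the second and lines for group means. gene_2220 drops between days 3 and 5 in both series, gene_3048 declines step by step, and gene_9282 is low at days 3 and 5 only in the second series.

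Over the 8 reference genes with the largest rise among those that met every condition for naming, mean levels ran from 2.69 to 233 CPM at day 3 and from 11.98 to 665 CPM at day 11, with log2 fold changes of 2.01 to 3.05 (edgeR adjusted p from 0.00495 to 0.0475). Of these 8, 6 were higher than control at day 11, and 2 were lower than control at day 3 and not called at day 11. The 6 include gene_9282, whose day 11 libraries overlapped the controls in CPM. Over the 8 with the largest fall among such genes, means ran from 12.8 to 437 CPM at day 3 and from 0.841 to 135 CPM at day 11, with log2 fold changes of -4.25 to -1.88 (edgeR adjusted p from 3.5e-05 to 0.0302). Of these, 4 were above control at day 3 and not called at day 11, and the other 4 were not called at day 3 and lower than control at day 11. Of the genes that met these conditions, the 4 most abundant that fell had 253 to 5150 FPKM over the 6 libraries, and the 4 most abundant that rose had 37.1 to 256 FPKM. Some genes met the same conditions except the second-series call. The 2 largest log2 fold changes among them in each direction were 2.52 and 3.24 upward and -5.65 and -7.43 downward. Their second-series adjusted p ran from 0.0609 to 0.119 (edgeR).

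Of 616 loci that the authors assembled newly and that were tested with edgeR, 3 rose (0.487%, beside 0.729% of all genes) and 0 fell (beside 0.694%). At an unadjusted p below 0.05 (edgeR), 44 of these 616 loci were higher and 16 lower. Over all 11386 genes, 2461 (21.6%) reached it in either direction. DESeq2 called 7 loci higher (1.14%) and 5 lower (0.812%), beside 193 and 143 of all 11386 genes. The 3 loci called with edgeR are given here by position because they are so few, a choice made after their values were seen. The build behind the coordinates is not stated in the files. Each has 1 transcript and overlaps no other new locus. The locus on the minus strand of scaffold 73 (77757 to 80482), with 2 exons, held 18, 30 and 26 counts at day 3 and 261, 157 and 75 at day 11 (log2 fold change 2.76, edgeR adjusted p = 0.0217). The locus on the minus strand of scaffold 3 (520832 to 522002), also with 2 exons, held 65, 48 and 55 counts at day 3 and 155, 179 and 160 at day 11 (log2 fold change 1.58, edgeR adjusted p = 0.0185). In both, every day 11 library lay above every day 3 library. The locus on the plus strand of scaffold 28 (226273 to 227623), with 4 exons, was present or absent rather than graded. It held 68, 0 and 0 counts at day 3, 74, 110 and 45 at day 11, and 0 in all 9 other libraries. Its call (edgeR adjusted p = 0.0386) rests on the series term, since replicate 1 of day 3 held as many counts as day 11. With the second series alone none of the 3 was called (edgeR adjusted p of 0.0528 to 0.0942).

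With replicates 2 and 3 as the only day 3 libraries, in a fit of the 9 second-series libraries, 37 genes were higher at day 11 (0.325%) and 55 lower (0.482%). They include 23 of the 83 genes that rose and 44 of the 79 that fell. All 162 genes kept their direction there, and 153 kept a change of 2-fold or more, but these fits share 5 of the 6 libraries. In a fit of those 5 libraries alone, 18 genes were higher (0.161%) and 20 lower (0.179%), 23 of them among the 162. Leaving out each of the 15 libraries in turn kept 7 of the 83 and 23 of the 79 in every fit. Of these, 7 and 21 were also called with the second series alone. By either measure the genes that fell were kept in larger number.

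Where the days overlapped in the called genes, replicate 1 of day 3 was involved in each case. In 142 of the 162 genes, the 3 libraries of day 11 all lay on 1 side of the 3 of day 3 (20.4% of all genes did so), and nothing is read from this, since the genes were called on these libraries. In the other 20, 10 in each direction, leaving out replicate 1 of day 3 removed the overlap in every case, and no other day 3 library did so in any.

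The first series gives an independent reading, as its libraries took no part in choosing the genes called with the second series alone. From replicate 1 of day 3 to replicate 1 of day 7, 30 of the 37 genes chosen as higher went up (81.1%), where 49.4% of all genes did. Of the 55 chosen as lower, 49 went down (89.1%), where 50.6% of all genes did. The median log2 differences were 0.71 and -0.79, beside -0.0062 over all genes. The direction was visible at replicate 1 of day 5, with 31 of 37 higher (83.8%, where 47.6% of all genes were). Of the 55, 47 were lower there (85.5%, where 52.4% of all genes were). Each day has 1 library in this series and shares its day 3 library across both readings, so these are values of single libraries and carry no test.

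**Figure D4:**
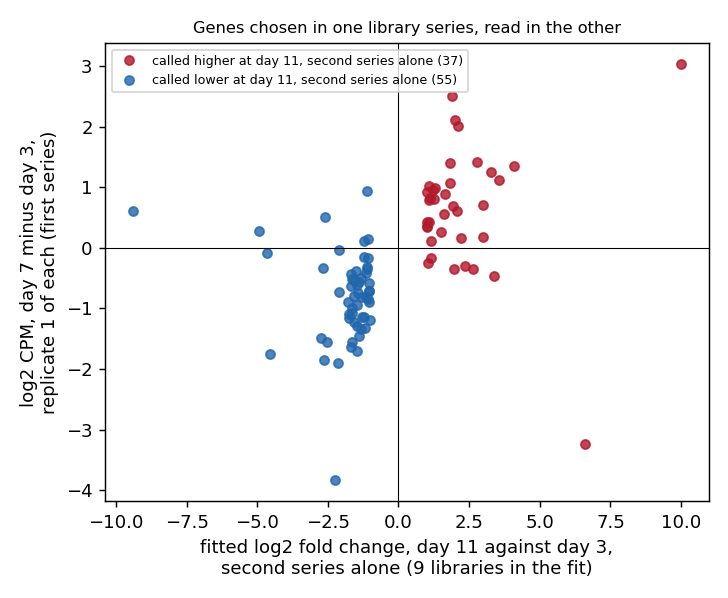
For the 37 genes called higher (red) and 55 called lower (blue) at day 11 in the second series alone, the fitted log2 fold change there (horizontal axis) is set against the log2 CPM difference of replicate 1 of day 7 from replicate 1 of day 3 in the first series (vertical axis). Of the red points 30 lie above 0 and of the blue points 49 lie below 0.

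Days 5 and 7 lay between days 3 and 11, and not at the same place for both sets. On a scale where day 3 is 0 and day 11 is 1, the genes that fell were at a median of 0.48 on day 5 (quartiles 0.36 and 0.58) and 0.72 on day 7 (quartiles 0.59 and 0.85). The genes that rose were at 0.36 on day 5 (quartiles 0.21 and 0.52) and 0.48 on day 7 (quartiles 0.29 and 0.64). So on day 7, 67 of 79 genes that fell were nearer to day 11, against 39 of 83 genes that rose. Split into steps, the step from day 3 to day 5 was the largest for 48 of the 79 that fell (60.8%, and 35.3% of all genes in their own direction). The step from day 7 to day 11 was the largest for 50 of the 83 that rose (60.2%, and 40.5% of all genes). This last step covers more days than each of the others, so step sizes are not rates and do not by themselves show a late rise. The positions come from the fit with the series term. From the second-series libraries directly they were 0.43 and 0.74 for the genes that fell, and 0.31 and 0.45 for those that rose. Both ends of the scale were set by the choice of genes, and the difference between the sets was not tested.

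Days 5 and 7 entered the choice of genes through the shift between series and the spread between replicates. Without replicate 1 of day 5, 116 of the 162 calls were kept, and without replicate 1 of day 7, 120. The following counts are therefore descriptions. Between these days, 68 of the 79 genes that fell by day 11 were lower at day 7 than at day 5 (86.1%, against 50.1% of all genes), with a median log2 difference of -0.33. Of the 83 genes that rose, 44 were higher at day 7 than at day 5 (53.0%, against 49.9% of all genes), with a median log2 difference of 0.079, so in that set the share was near that of all genes. A straight line over days 3, 5, 7 and 11, fitted to the 12 wood libraries, was called in 89 genes that rose (0.782%) and 87 that fell (0.764%), 1.55% together, with 122 of them among the 162 (68 in the falling and 54 in the rising set). This fit shares the libraries of days 3 and 11.

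**Figure D5:**
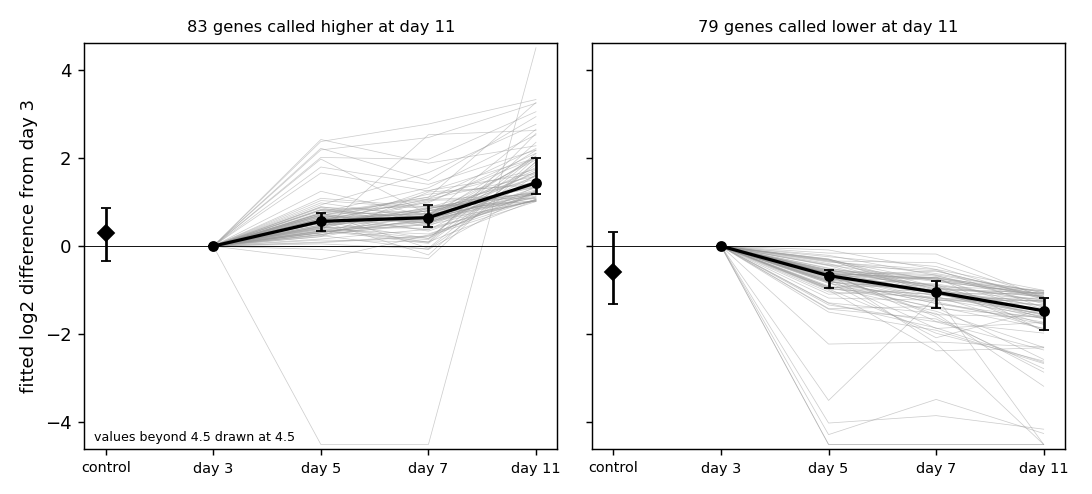
Fitted log2 difference from day 3 for the 83 genes called higher (left) and the 79 called lower (right) at day 11. Grey lines are single genes, black points and bars are medians and quartiles, diamonds are the control, and values beyond 4.5 are drawn at 4.5. In the rising set the median step from day 5 to day 7 is small (0.079), and the median rises further to day 11. The median of the falling set declines at every step.

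The control lay nearer to day 3 than to day 11 for most genes that rose, and only slightly more often than not for those that fell. The spread was wide in both sets. As control and day 11 share no library series, these positions rest on the fitted shift between series. On the same scale it was at a median of 0.18 for the genes that rose (quartiles -0.28 and 0.53) and 0.35 for those that fell (quartiles -0.24 and 0.87). It was nearer to day 3 in 61 of 83 and in 43 of 79. The comparisons with control share the libraries of days 3 and 11 with the choice of genes, so the following counts are descriptions. Of the 83 genes that rose, 8 were above control at day 3 (3.35% of all genes were) and 13 below (5.81%). At day 5 there were 19 above (3.71%) and 6 below (6.29%), at day 7 20 above (4.75%) and 4 below (7.73%), and at day 11 46 above (4.51%) and 1 below (6.14%). The genes that fell ran the other way. Of these 79, 27 were above control and 7 below at day 3, 12 and 19 at day 5, 8 and 28 at day 7, and 4 and 35 at day 11. The median log2 difference of the falling set from the control was 0.58 at day 3, -0.035 at day 5, -0.60 at day 7 and -1.04 at day 11. This describes the set and not single genes, as 0 of the 79 were called above control at day 3 and below it at day 11. From day 3 to day 11, 23 went from above control to not called (1.29% of all genes did). Another 28 went from not called to below control (1.99% of all genes).

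The most abundant genes also held fewer counts at day 11. In each library the leading 10 genes by count held 4.69%, 5.39% and 5.06% of counts at day 3 and 3.76%, 3.81% and 3.91% at day 11. The days did not overlap (exact permutation test, two-sided p = 0.10, the smallest that 3 against 3 libraries allow). The difference of means was -1.22 percentage points. It was -1.40 with replicates 2 and 3 as the only day 3 libraries, and -0.619 without gene_3048. The controls held 7.64%, 7.61% and 8.02%, so day 11 lay further from the control than day 3 did. For the 100 most abundant genes the days overlapped, with 18.7% ± 0.610 at day 3 and 17.2% ± 0.915 at day 11 (SD, n = 3; exact permutation test, two-sided p = 0.20).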

How the data were processed

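Per the labels' protocols, poly-A RNA of mycelium was sequenced as paired-end reads. HISAT2, StringTie, DESeq 1.10.1 and DESeq2 appear in the submitters' processing notes, with no roles. The genome build was not given in the sources used. The authors deposited estimated counts per gene (whole numbers, used as deposited) and FPKM values, scaled by length and depth, used here for levels and alternatives. Columns were matched to samples by title, and 1 count column of day 5 without a matching number entered as a day 5 library without a number, in the second series. Each column of library values was used.

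The count test was edgeR 4.0.16 in R 4.3.3, on the 11386 of 12885 genes that filterByExpr kept. TMM factors and a robust quasi-likelihood fit were used, with terms for group and library series, over 15 libraries (9 residual degrees of freedom). SE is the log2 fold change divided by the square root of F. Exact permutation tests compared shares of counts. Named genes were called in both the fit of all libraries and that of the second series, had 10 CPM or more on 1 day and did not overlap. The rule then took the 8 largest changes, the 4 highest FPKM means and up to 2 new loci per direction, and outside the second-series condition the 2 largest. It gave 26 genes, of which the first by change and by FPKM in each direction carry identifiers. Planned lists by enzyme product could not be matched. Members and lists were chosen with earlier results of these data known. Alternatives used DESeq2 1.42.0 and limma 3.58.1. The procedure was also run on simulated data, which held no shift between series, so the handling of such a shift was not tested. The replicates are described as biological, and 3 libraries per day limit precision.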

Additional observations from a re-analysis of the deposited data

Results flagged for a closer look

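Levels differed between the time points day 3 and day 11 in 162 genes, which is the comparison of the report itself (edgeR quasi-likelihood test, adjusted p under 0.05 and 2-fold or more). The change from day 3 to day 7 differed between the library series in 14 genes by an interaction term (0.123% of genes tested, 5 with a larger and 9 with a smaller value in the second series), beside 899 genes (7.90%) at an unadjusted p under 0.05. Of the 162 genes, 1 was among these 14 and 8 were among the 899. The first series has 1 library per wood day, which is assumed to vary like the others.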

How the results depend on the processing

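The genes called higher (83) and lower (79) numbered 193 and 143 with DESeq2, 183 and 290 with no fold limit, 10 and 34 without the series term, 18 and 20 with the 5 second-series libraries of both days alone, and 22 and 39 with a replicate block. Higher calls alone moved with library totals (143, beside 60 lower), with limma on log2(FPKM + 0.1) (138, beside 63 lower) and with the second series alone (37). Median log2 fold changes of all genes were 0.136, 0.129 and 0.107 with library totals and FPKM with pseudocounts of 0.1 and 1. Leaving out each library gave 15 to 108 higher and 33 to 84 lower. The 162 genes kept their direction in every fit that tested them, except 1 gene without the series term. All these fits use libraries on which the genes were chosen, so the kept direction is no separate support. The trend (176 genes) gave 45 with no term for series, 117 from second-series libraries only, 24 with a replicate block, 333 with DESeq2, and 50 to 160 without single libraries, with 50, 109 and 111 without replicate 2 of day 3 and replicates 1 and 2 of day 11. The median position of day 7 over both sets was 0.611, and 0.699 without the series term. The difference in the share of the 10 most abundant genes ran from -1.40 to -1.05 percentage points without single libraries. For each moved value the cause was not tested. Same-numbered libraries of days 3 and 11 did not deviate together (r from -0.0075 to 0.019), so the replicate block, which had to omit the day 5 library that has no number, pairs libraries by number only.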

Other observations

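The 162 genes were also read in the deposited FPKM values of the same libraries. The ratio of mean FPKM at day 11 to day 3 had the direction of the count call in 82 of 83 genes that rose and 79 of 79 that fell, and was 2-fold or more in 68 and 58. Over all genes tested, libraries of day 3 and day 11 in the second series differed by a root mean square of 1.07 to 1.10 on the log2 CPM scale, days 3 and 5 by 0.954 to 0.998, and days 3 and 7 by 1.01 to 1.08. The pair of second-series day 3 libraries differed by 1.02 and the 3 day 11 libraries among themselves by 0.936 to 1.03. The distances between replicates thus came close to those between days.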
